A study of Mus musculus with 8 samples.

Results

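The genes described here are the transcripts of the pancreatic acinar cell, the cell that makes and secretes the digestive enzymes, as measured in pancreatic lymph nodes of Deaf1 knockout mice. They were chosen by name from a list of 46 symbols, and the rule uses no measured value. Of these names, 32 stand as gene names in the array files, on 40 of the 41174 probes, and 31 of the 32 genes passed the filter on dim probes that left 18378 genes for testing. Reg3a was the member that did not pass. A further 6 genes of the list appear in the files under other names and are given separately: Cela2a, Cela3b, Try5, Zg16, Reg3b and Spink1, of which Reg3b did not pass the filter.

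Each of 8 two-colour Agilent arrays held the pancreatic lymph node RNA of a Deaf1 knockout BALB/c sample in the red dye, Cy5, and that of a pool of wild-type BALB/c littermates of the same age in the green dye, Cy3. There were 2 knockout samples of 4 weeks, set against a pool of 2 wild-type mice, 3 knockout samples of 12 weeks, set against a pool of 3, and 3 knockout samples of 30 weeks, also set against a pool of 3. Deaf1 encodes a transcription factor, and the study compared gene expression in the node that drains the pancreas with and without it. No array had the dyes swapped and no single wild-type mouse was hybridised, so dye and genotype cannot be told apart and the spread among wild-type mice is not in any test. The labels do not say whether the arrays of an age shared 1 pool, which cells the knockout affects, or which part of Deaf1 is removed.

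On every array 43379 of 45018 spots were not controls and 0 spots were saturated. Between 46.8% and 71.4% of probes were well above background in the knockout channel and between 37.2% and 62.6% in the wild-type channel. Deaf1 itself had log2 ratios of knockout over wild type between −0.22 and 0.35 over the 8 arrays, and at 12 weeks it was higher in the knockout (0.34 ± 0.06 SE, limma adjusted p = 0.0344). Since the removed part is not stated, its probe does not check the genotype. Replicate 2 of 12 weeks stood apart in sex-linked genes, with a log2 ratio of 5.32 for Xist and −4.86 for Eif2s3y. The median of the members' fitted values and the number called at 12 weeks are also given without it. The medians by role, sign counts and sums of 12 weeks include it. The arrays lay on 3 slides: both of 4 weeks on the first, the 3 of 12 weeks and replicate 1 of 30 weeks on the second, and replicates 2 and 3 of 30 weeks on the third.

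Acinar cells fill their apical granules with enzyme precursors, the zymogens, and release them into the pancreatic ducts when a meal stimulates the gland. The zymogens include trypsinogens, chymotrypsinogens, proelastases and procarboxypeptidases, and they travel with amylase, lipases, a ribonuclease and proteins of the granule membrane and content. A small set of transcription factors keeps these genes on: Ptf1a and Rbpjl are subunits of the PTF1 complex, which binds an E-box and a nearby TC box in acinar promoters, and Bhlha15 (Mist1) shapes the secretory apparatus. Reg genes encode small secreted lectin-like proteins that acinar cells make in larger amounts during pancreatic injury and inflammation. A lymph node is not built of acinar cells, and pancreatic tissue lies directly beside the pancreatic node. In RNA of a whole node, fewer acinar cells and less acinar RNA per cell cannot be told apart.

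Promoters of 5 members are shown because each carries an E-box or a TC box, and because their genes moved together across the 30-week arrays. These are the letters that the acinar factors among the members are known to bind. Of the 5, only Cela1 and Prss2 carry both: Cpa1 and Ctrb1 have no E-box and Rbpjl has no TC box. Each is the 250 bases before the gene's start, 5′ to 3′ on the gene's strand, from RefSeq on GRCm38.p6. Capitals mark the E-box CACCTG, the TC box TTTCCC and the TATA box TATAAA, each searched on both strands. Cpa1 lies at chr6:30638968-30639217 on the plus strand, Cela1 at chr15:100687921-100688170 on the minus strand, Prss2 at chr6:41521526-41521775 on the plus strand, Ctrb1 at chr8:111691011-111691260 on the minus strand and Rbpjl at chr2:164402944-164403193 on the plus strand.
Cpa1: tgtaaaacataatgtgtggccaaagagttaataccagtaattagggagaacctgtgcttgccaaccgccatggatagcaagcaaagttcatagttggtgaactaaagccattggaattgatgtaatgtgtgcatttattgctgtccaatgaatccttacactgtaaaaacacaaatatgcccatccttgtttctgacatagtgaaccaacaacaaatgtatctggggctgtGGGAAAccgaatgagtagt
Cela1: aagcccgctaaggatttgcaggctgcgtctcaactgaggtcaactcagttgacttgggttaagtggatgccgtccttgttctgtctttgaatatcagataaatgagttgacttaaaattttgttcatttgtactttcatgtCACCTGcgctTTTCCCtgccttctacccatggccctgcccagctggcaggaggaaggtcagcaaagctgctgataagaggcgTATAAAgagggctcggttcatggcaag
Prss2: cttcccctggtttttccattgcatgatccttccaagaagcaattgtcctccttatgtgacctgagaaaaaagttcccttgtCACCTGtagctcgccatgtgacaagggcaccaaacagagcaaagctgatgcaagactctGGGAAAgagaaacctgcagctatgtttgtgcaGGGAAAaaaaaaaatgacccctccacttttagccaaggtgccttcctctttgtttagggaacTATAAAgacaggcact
Ctrb1: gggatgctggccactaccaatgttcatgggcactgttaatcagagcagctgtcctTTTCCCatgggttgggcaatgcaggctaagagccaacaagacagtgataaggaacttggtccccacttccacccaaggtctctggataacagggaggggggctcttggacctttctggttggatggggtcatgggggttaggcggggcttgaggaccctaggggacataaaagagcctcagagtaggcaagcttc
Rbpjl: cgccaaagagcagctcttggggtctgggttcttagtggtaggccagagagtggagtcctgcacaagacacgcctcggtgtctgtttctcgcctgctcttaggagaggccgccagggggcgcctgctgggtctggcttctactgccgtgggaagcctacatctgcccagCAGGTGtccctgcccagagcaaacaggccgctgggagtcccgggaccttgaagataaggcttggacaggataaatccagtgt

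RefSeq rows were found for 28 members. The E-box stood in the promoters of 14 of the 28 genes (50%), against 17.2% of all 32851 promoters of that length. A member counts if any of its promoters has the letters, and Amy1 has more than 1, whereas the share of all counts each promoter. The TATA box stood in 11 of 28 (39.3%, against 12.4% of all), and the TC box in 8 of 28 (28.6%, against 21.9% of all). Both PTF1 letters together were in 4 promoters, those of Cela1, Prss2, Cel and Reg3d (14.3%, against 3.61% of all). By role, the E-box was in 6 of 8 protease promoters, 2 of 8 of the amylases, lipases and nuclease, 1 of 4 of the granule group, 2 of 3 transcription factors and 3 of 5 Reg genes. These matches describe letters and not bound sites, and no binding data were used.

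At 30 weeks the acinar transcripts split the 3 knockout nodes. All 31 members had log2 ratios below 0 in replicate 1 (−5.82 to −0.06) and in replicate 3 (−6.36 to −0.00), and 30 of 31 were above 0 in replicate 2 (up to 5.30). Reg3g, with −0.09 in replicate 2, was the exception. The median of the members was −3.38, 3.44 and −3.83 in replicates 1, 2 and 3, whereas the median of all genes was 0.02 on each of these arrays. A log2 ratio of 1 is a 2-fold difference between the channels. Replicates 2 and 3, of opposite sign, lay on the same slide, and replicate 1 lay on the slide of the 12-week arrays.

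**Figure D1:**
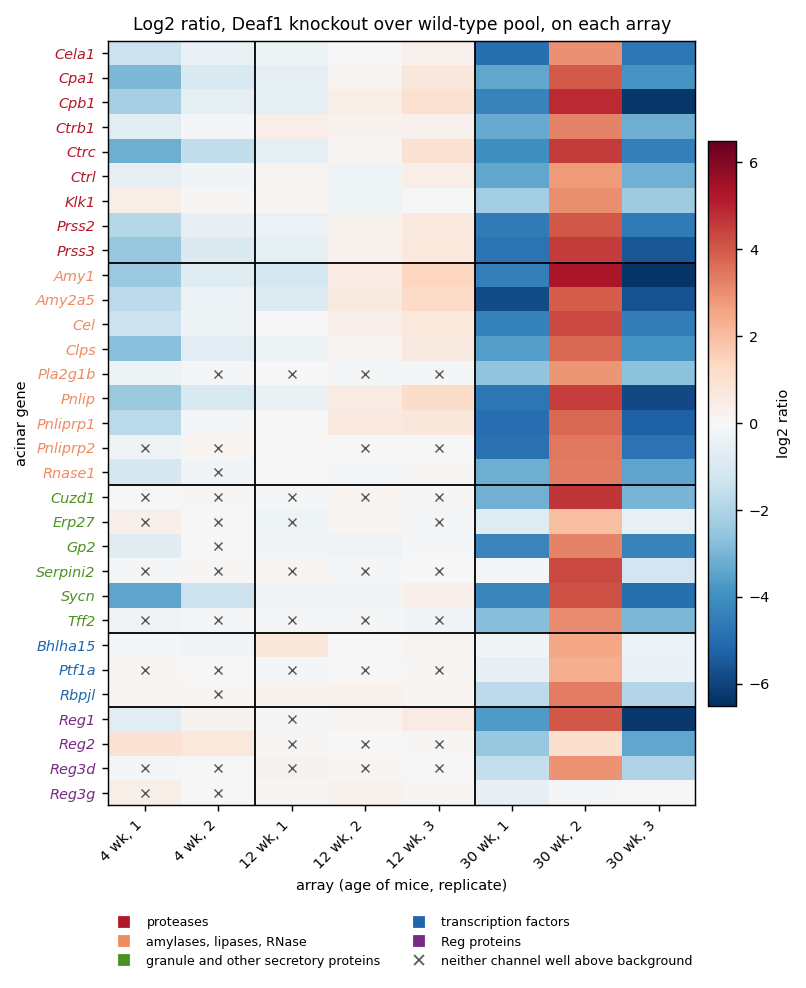
Log2 ratio of knockout over wild-type pool (colour) for the 31 tested members, in rows grouped by role, on the 8 arrays in columns by age and replicate. A cross marks a spot where neither channel was well above background. The 30-week columns show replicates 1 and 3 below 0 in every row and replicate 2 above 0 in all rows but Reg3g, while the 4-week and 12-week columns stay closer to 0.

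With 1 array of opposite sign, no member passed the test at 30 weeks: 0 of 31 were called by limma's moderated test with Benjamini-Hochberg adjustment over 18378 genes (adjusted p at most 0.05), against 39.1% of all genes. Reg2 alone had an unadjusted p under 0.05 (limma adjusted p = 0.0872). The median of the members' fitted log2 ratios was −1.24 at 30 weeks, against 0.03 for all genes, and it was −0.07 without replicate 1, −3.61 without replicate 2 and 0.10 without replicate 3. Leaving out replicate 2 changed the calls: 28 of 31 members then passed and were lower in the knockout, against 13.7% of all genes lower. The 3 that did not pass were Serpini2 (adjusted p = 0.0686), Bhlha15 (0.226) and Reg3g (0.177). Cuzd1, Erp27, Ptf1a and Reg3d passed the filter on dim probes only through the wild-type channel of 30 weeks. Their ratios below 0 in replicates 1 and 3, and their places among the 28, thus partly follow from the filter. That fit sets aside 1 of 3 knockout nodes after its values were seen, so both counts are given and neither replaces the other.

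The secreted proteases showed the split with large ratios. Cpa1, a procarboxypeptidase, had normalised log2 signals of 12.90, 18.21 and 12.45 in the 30-week knockout channels, against 16.29, 14.23 and 16.28 in the wild-type channels of the same arrays. Replicate 2 was the one knockout node above its wild-type partner, and the knockout and wild-type ranges overlapped. Its fitted log2 ratio was −1.08 ± 1.28 (SE, adjusted p = 0.537) with all arrays, and −3.61 ± 0.44 (adjusted p = 0.00348) without replicate 2. Prss2, an anionic trypsinogen, had 11.25, 18.15 and 11.27 in the knockout, against 15.86, 14.12 and 15.85 in wild type, which gives ratios of −4.61, 4.03 and −4.58. The chymotrypsinogen gene Ctrb1 gave −3.29, 3.22 and −3.18, and the proelastase gene Cela1 gave −4.89, 2.98 and −4.71. Cpb1, a second procarboxypeptidase, gave −4.32, 4.84 and −6.31. The order of the nodes was thus the same in each of these genes: replicate 2 high, replicates 1 and 3 low. The median of the 9 proteases was −4.0, 3.98 and −4.44, and without replicate 2 all 9 passed and were lower in the knockout.

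Klk1, the tissue kallikrein, was in the same group with smaller ratios of −2.28, 3.02 and −2.33. Its level in the nodes was already above background at 4 and 12 weeks in both channels, with log2 signals of 8.56 to 9.47 in the knockout and 8.49 to 9.33 in wild type, and ratios between −0.27 and 0.39. Cela2a, an elastase listed in the files by a clone name, followed the group with −3.83, 3.13 and −4.06. Cela3b gave −4.09, 4.62 and −5.23, and the trypsinogen Try5 gave −4.38, 4.28 and −4.40.

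The amylases, lipases and the nuclease showed the widest range. Amy1, an amylase gene of salivary gland and liver, had log2 signals of 14.38, 18.89 and 12.43 in the knockout, against 18.83, 13.59 and 18.78 in wild type. Its ratios of −4.45, 5.30 and −6.36 include the highest and the lowest of any member. The 5.30 was taken against the wild-type signal of 13.59 on that array. Against the mean wild-type signal of replicates 1 and 3, the value was 0.08. Amy2a5, a pancreatic amylase, gave −5.82, 3.95 and −5.67, and its fitted value was −2.51 ± 1.62 (SE, adjusted p = 0.252) with all arrays and −5.74 ± 0.47 (adjusted p = 0.00095) without replicate 2. Both amylases therefore showed the same sign on each 30-week array. Pnlip, pancreatic triglyceride lipase, had 10.98, 18.00 and 9.84 in the knockout, against 15.66, 13.52 and 15.70 in wild type. Its cofactor colipase, encoded by Clps, gave ratios of −3.57, 3.74 and −3.88, and the bile-salt-activated lipase gene Cel gave −4.41, 4.28 and −4.50. The pancreatic ribonuclease gene Rnase1 gave −3.15, 3.36 and −3.44, and the phospholipase gene Pla2g1b gave −2.58, 2.89 and −2.68. All 9 genes of the group passed without replicate 2 and were lower in the knockout.

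Among the granule, inhibitor and other secretory genes, Sycn, which encodes the granule protein syncollin, had log2 signals of 11.79, 18.42 and 11.12 in the knockout, against 16.07, 14.27 and 16.02 in wild type. Gp2, the main glycoprotein of the zymogen granule membrane, had 6.96, 14.48 and 6.94 in the knockout, against 11.24, 11.26 and 11.29 in wild type. Both put replicate 2 above and the other two nodes below the wild-type channel. Cuzd1, a granule membrane protein, gave −3.12, 4.63 and −3.05, with a knockout signal well above background on replicate 2 only. Tff2, a trefoil peptide also made by the stomach, gave −2.75, 3.08 and −2.90, and the granule lectin Zg16 gave −4.01, 3.36 and −4.32. A probe listed by an accession that RefSeq now places under Spink1, the pancreatic trypsin inhibitor, gave −2.74, 4.24 and −4.66, but the file annotates that probe to chromosome 16, so its gene is uncertain. Serpini2 (−0.06, 4.28 and −1.22) and Erp27 (−0.76, 1.96 and −0.46), a protein disulphide isomerase relative, were close to 0 in at least 1 node, and Erp27's knockout signal was well above background on 2 of the 3 arrays. Without replicate 2, 5 of these 6 members passed and were lower. Cuzd1 and Erp27 are among the 5, and they passed the filter on dim probes only through the 30-week wild-type channel.

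The 3 transcription factors had smaller negative ratios than the secreted enzymes in replicates 1 and 3 and a clear positive one in replicate 2. Their median was −0.54, 2.52 and −0.41, whereas that of the 18 secreted enzymes was −4.37, 3.85 and −4.54. Rbpjl, the pancreas-restricted PTF1 subunit whose promoter with its E-box is printed above, had log2 signals of 7.44, 12.71 and 7.18 in the knockout, against 9.16, 9.40 and 9.10 in wild type. Its fitted log2 ratio was −0.11 ± 0.84 (SE, adjusted p = 0.93) with all arrays and −1.82 ± 0.08 (adjusted p = 5.63e-05) without replicate 2. Ptf1a had 5.92, 8.90 and 6.0 in the knockout, against 6.46, 6.54 and 6.41 in wild type, and its knockout signal was well above background on replicate 2 only. Its wild-type signals lay just above background, which limits how far a ratio can go below 0. Bhlha15 gave −0.16, 2.52 and −0.38, and a second probe of that gene gave −0.00, 0.17 and −0.08, so the 2 probes disagree about replicate 2. Whether the factors differ from the enzymes was not tested, because signals of different probes are not on a common scale.

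The Reg genes did not all follow the enzymes. Reg1 had log2 signals of 10.05, 16.94 and 7.49 in the knockout, against 13.76, 12.90 and 13.76 in wild type, with ratios of −3.70, 4.04 and −6.27. Reg2 gave −2.47, 1.04 and −3.40, with knockout signal above background on 2 arrays, and Reg3d gave −1.56, 2.92 and −1.97, also on 2 arrays. Reg3g, an antibacterial lectin made chiefly in the gut, had 6.64, 7.10 and 7.08 in the knockout, against 7.17, 7.19 and 7.09 in wild type, so that its 3 knockout signals were all slightly lower and within 0.53 of their partners. Reg3a was not well above background in either channel at any age. Reg3b, listed in the files by an older name, was above background in the knockout on replicate 2 only, where its ratio was 1.02. The files annotate the probes of Reg1, Reg2, Reg3a, Reg3d and Reg3g to one stretch of chromosome 6 (mm8), with Reg1 at chr6:78358042-78358101 and Reg3g at chr6:78395935-78395994.

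**Figure D2:**
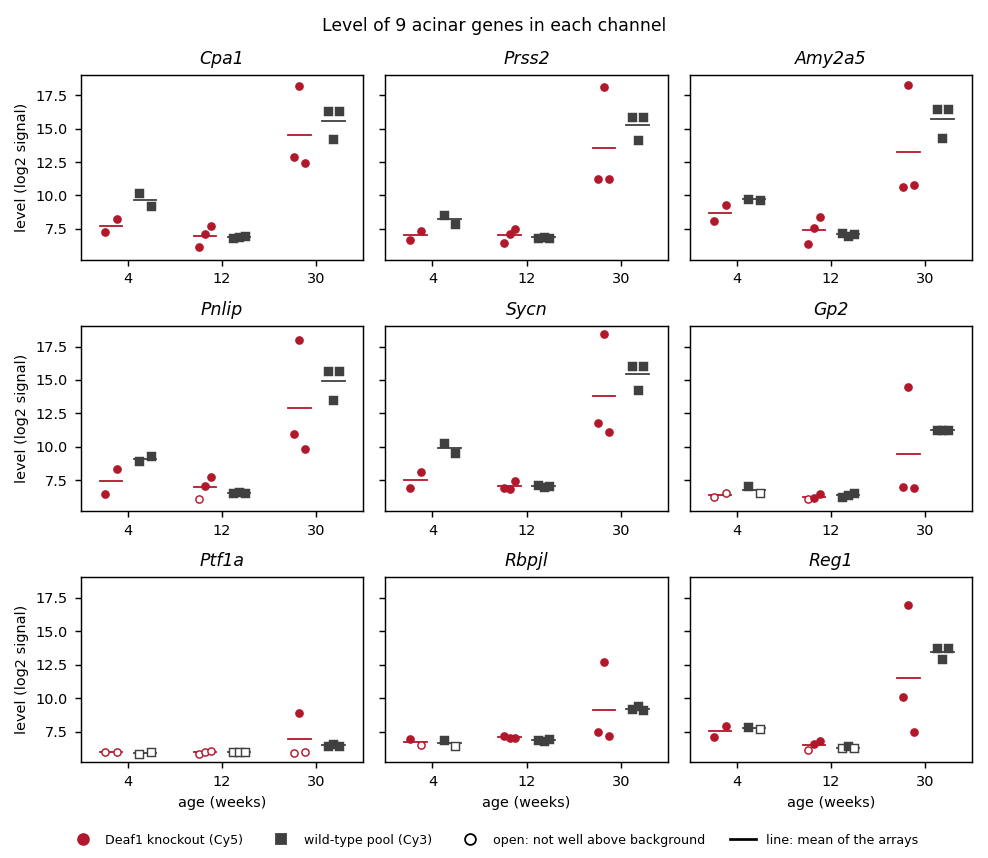
Normalised log2 signal of 9 members by age in weeks, with knockout samples to the left of the wild-type channel of their arrays at each age; each point is 1 array and open points were not well above background. In all 9 genes the wild-type points of 30 weeks lie above those of 4 and 12 weeks, and the knockout points of 30 weeks spread with replicate 2 highest.

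The opposite-sign pattern of 30 weeks was sparse outside the acinar list. A log2 ratio of at most −2 in replicates 1 and 3 together with at least 2 in replicate 2 was met by 36 of 18375 genes with values (0.196%), and 23 of the 36 were members. By role these were all 9 proteases, all 9 amylases, lipases and nuclease, 4 of 6 granule genes, 1 of 4 Reg genes (Reg1) and 0 of 3 transcription factors. The thresholds were chosen with these values known, so the count is a description. A further 5 were list genes under other names and 8 were other genes. Among these 8 were Dmbt1, a secreted scavenger-receptor protein (−4.07, 3.63 and −4.50), Pdia2, the pancreatic protein disulphide isomerase (−4.01, 3.22 and −4.14), and the kallikreins Klk1b4 (−2.37, 3.04 and −2.39), Klk1b3 (−2.30, 3.14 and −2.39) and Klk1b8 (−2.12, 3.03 and −2.06). The kallikrein ratios lay close to those of the member Klk1 (−2.28, 3.02 and −2.33). Whether their probes read the same transcript was not tested, so they may not be separate cases.

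Of 21 other acinar genes listed for comparison, 18 were tested. Their medians at 30 weeks were −0.55, 1.95 and −0.50. With all arrays, Nr5a2, a nuclear receptor of acinar cells, rose (0.63, 1.64 and 0.64, adjusted p = 0.00543) and Xbp1, a factor of the secretory pathway that plasma cells also use, fell (−0.46, −0.23 and −0.49, adjusted p = 0.00687). The other 16 did not pass, and over all genes 20.7% passed as higher and 18.4% as lower. Cckar, the cholecystokinin receptor, gave −1.24, 3.17 and −1.50, and Tmed6, a cargo protein of the early secretory route, gave −1.74, 2.89 and −1.85. Without replicate 2, 1 of the 18 passed as higher, against 15.5% of all genes, and 10 as lower, against the 13.7% given above.

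The wild-type channel of replicate 2 also differed from its partners of the same age. In 12 members its log2 signal was more than 1 lower than the mean of replicates 1 and 3, with differences of −5.22 for Amy1 (18.83, 13.59 and 18.78) and −2.05 for Cpa1. Replicates 1 and 3 differed from each other by at most 0.23 in any member. Over all 18375 genes, 17 were more than 1 lower in that channel, of which 14 were members or list genes under other names, and 1 was more than 1 higher. The same appeared in the scanner's green signal before normalisation: Amy1 read 333108, 11565 and 341291 and Cpa1 read 60825, 18077 and 59433, whereas Gp2 read 2047, 2065 and 2105. The 12 members were those whose red spots on replicate 2 were brightest, at 17.37 to 18.89, against 6.33 to 17.25 for the other 20 of the 32 members. These are brightnesses of spots and not transcript abundances, and the part that the bright red channel plays in the green reading was not tested.

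**Figure D3:**
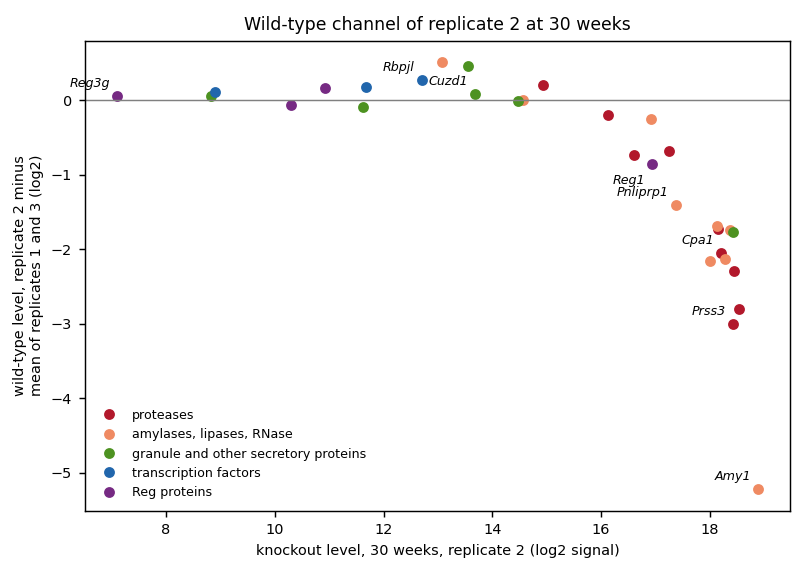
Wild-type log2 signal on replicate 2 of 30 weeks minus the mean of replicates 1 and 3 (vertical), against the knockout log2 signal on replicate 2 (horizontal), for the 31 tested members. Members with knockout signals of 17.37 or more lie 1 or more below 0, down to −5.22 for Amy1, and the others lie closer to 0.

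The knockout signal of replicate 2 was also set against the other wild-type channels. Against the mean wild-type signal of replicates 1 and 3, the knockout signal of replicate 2 was above 0 in 30 of 31 members and above 1 in 28, with a median of 2.54, against 3.44 on its own array. The size changed most for Amy1, with 0.08 in place of 5.30, and Cpa1 had 1.92 in place of 3.98. Those values set signals of different arrays side by side after normalisation between arrays, and they carry no test.

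At 4 weeks the members were mostly lower in the knockout, without passing the test on all arrays. The median log2 ratio was −0.76 in replicate 1 and −0.13 in replicate 2, and the median of the fitted values was −0.42, against 0.02 for all genes. Of the 31 members, 21 were below 0 on both arrays, against 34.6% of all genes. Of the 19 members that were above background in at least 1 channel of both arrays, 16 were below 0 on both, with medians of −1.75 and −0.42. None of the 31 was called (0 of 31, limma, against 22.7% of all genes), the lowest adjusted p was 0.328, and 0 had an unadjusted p under 0.05. Other lists also had negative medians on the same arrays, furthest below 0 for adipocyte and duct genes. A list of 8 gut and salivary genes had −0.06 and −0.06, with 1 called lower, and the lymph node list had −0.03 and −0.01. The adipocyte list had medians of −1.52 and −0.58, with 11 of 12 genes below 0 on both arrays and 3 of 12 called lower, against 7.38% of all genes. The duct list had medians of −0.32 and −0.19, with 8 of 11 genes below 0 on both arrays and 1 above 0 on both (Tff1, 0.35 and 0.10). Called lower were 2 of the 11, Krt7 (−0.83 and −0.49) and Anxa2 (−0.59 and −0.27). The keratin genes Krt8 (−1.62 and −1.06) and Krt18 (−1.64 and −1.03) were furthest below 0 in replicate 1 and were not called. The part of these lists in the acinar values was not tested.

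The members furthest below 0 at 4 weeks were secreted enzymes and granule proteins. Sycn had log2 signals of 6.91 and 8.12 in the knockout, against 10.32 and 9.53 in wild type. Cpa1 had 7.24 and 8.22 in the knockout, against 10.16 and 9.22 in wild type. The chymotrypsin C gene Ctrc, whose product breaks down trypsinogen, gave ratios of −3.20 and −1.62. In these genes replicate 1 was further below its pool than replicate 2, and the groups did not overlap. Other members gave Clps −2.69 and −0.74, Amy1 −2.41 and −0.81, Pnlip −2.42 and −1.0, Prss2 −1.87 and −0.53, Amy2a5 −1.71 and −0.37, Cpb1 −2.13 and −0.59, Cel −1.39 and −0.32, Cela1 −1.39 and −0.42 and Rnase1 −1.05 and −0.18. Gp2 (−0.81 and −0.03) and Ctrb1 (−0.70 and −0.13) were nearer 0 in replicate 2.

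The transcription factors stood near 0 at 4 weeks, with Rbpjl at 0.06 and 0.10 and Bhlha15 at −0.09 and −0.16, while Ptf1a was not above background in either channel. Reg2 went the other way from the enzymes: its log2 signals were 7.52 and 8.11 in the knockout, against 6.59 and 7.43 in wild type, where it was not well above background. The mean knockout signal was 1.75-fold the wild-type one (fitted log2 ratio 0.80 ± 0.81 SE, limma adjusted p = 0.528). With wild type within background, this value is uncertain. Reg1 gave −0.76 and 0.22. The 9 members in which neither channel was well above background on either array of 4 weeks were Pnliprp2, Cuzd1, Erp27, Serpini2, Tff2, Ptf1a, Reg3a, Reg3d and Reg3g.

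The shared fit takes 1 spread per gene from all 8 arrays, so that the split at 30 weeks enters the errors of the other ages. Without replicate 2 of 30 weeks, 10 members were called at 4 weeks, against 21.2% of all genes. Of these, 9 were lower in the knockout: Cela1, Cpa1, Ctrc, Prss2, Prss3, Cel, Clps, Pnlip and Sycn. Ctrc fell by 2.41 ± 0.42 and Sycn fell by 2.41 ± 0.40 on the log2 scale (SE, limma adjusted p = 0.00802 and 0.00686). Reg2 was the one that rose (0.80 ± 0.19 SE, limma adjusted p = 0.0224). A fit on the 2 arrays of 4 weeks alone called 15 members, against 26.4% of all genes, among them Ctrc (adjusted p = 0.00136), Sycn (0.00307) and Cpa1 (0.0059), with the spread taken from 2 samples.

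At 12 weeks the members were near the level of the pool. The medians were −0.08, 0.13 and 0.29 in replicates 1, 2 and 3, and the median of the fitted values was 0.11, or 0.10 without replicate 2. None of 31 was called (0 of 31, limma, against 2.61% of all genes), the lowest adjusted p was 0.435 and 0 had an unadjusted p under 0.05. Without replicate 2 of 30 weeks the count was also 0, against 1.25% of all genes, with 3 at an unadjusted p under 0.05. On the arrays of 12 weeks alone it was 0, against 0.0326%, with 2. On the 30-week arrays alone 0 members were called, against 46.8% of all genes, and 0 had an unadjusted p under 0.05.

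The enzymes differed between the 12-week nodes by sample. Amy1 had log2 signals of 9.48, 11.06 and 11.95 in the knockout, against 10.64, 10.57 and 10.56 in wild type. Amy2a5 gave ratios of −0.88, 0.60 and 1.26, Pnlip −0.42, 0.51 and 1.19, Cpb1 −0.57, 0.43 and 1.01, Cpa1 −0.64, 0.18 and 0.75 and Prss2 −0.39, 0.23 and 0.62. In each of these replicate 1 was below its pool and replicate 3 furthest above it, so the knockout range included the wild-type one. The median of the 9 proteases was −0.39, 0.19 and 0.62. Ctrb1 was above 0 on all 3 arrays (0.41, 0.22 and 0.29) and Sycn was at −0.22, −0.15 and 0.35. Of the 31 members, 3 were below 0 on every array of 12 weeks, against 18.5% of all genes, and of the 21 members above background in at least 1 channel of every array, 1 was. The adipocyte list had medians of −1.39, −1.24 and −0.04 on these arrays, and its part in the acinar values was not tested.

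Among the regulators at 12 weeks, Rbpjl gave 0.25, 0.22 and 0.11 and Bhlha15 gave 0.73, 0.04 and 0.19. Reg1 gave −0.15, 0.16 and 0.53. Reg3g was above background in the knockout and not in wild type. With wild type set no lower than its background limit, its knockout signal was 1.09-fold higher (limma adjusted p = 0.435). In 8 members neither channel was well above background on any 12-week array: Pla2g1b, Cuzd1, Serpini2, Tff2, Ptf1a, Reg2, Reg3a and Reg3d.

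The wild-type pools themselves differed by age. In all 31 members the lowest wild-type signal of 30 weeks was above the highest of 12 weeks, against 25.0% of all genes, and above the highest of 4 weeks, against 38.7% of all genes. The step from the highest 12-week to the lowest 30-week value had a median of 5.91 on the log2 scale over the members (0.40 to 7.54). Of 94 genes whose step was more than 1, 28 were members, and of 47 with more than 2, 25 were members and 5 were list genes under other names. The wild-type signal of 4 weeks was above that of 12 weeks on all arrays in 20 of 31 members, against 33.1% of all genes. Pla2g1b, Pnliprp2, Cuzd1, Erp27, Serpini2, Tff2, Ptf1a and Reg3d passed the filter on dim probes only through their 30-week signals. Their places in these age counts, and in those of the knockout channels below, thus partly follow from the filter. The wild-type channels of one age can hold the same RNA, and no test was made between ages of the pools.

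The knockout channels showed the same order less uniformly. In 24 of 31 members every knockout signal of 30 weeks was above every one of 12 weeks, against 15.3% of all genes, and in 24 of 31 above every one of 4 weeks, against 31.5% of all genes. Replicate 2 of 30 weeks had the highest knockout signal of all 8 arrays in all 31 members, against 2244 of all 18378 genes. The 30-week nodes with negative ratios thus still held more acinar signal than the 12-week knockout nodes in most members. Gp2 was an example close to background, with 6.08, 6.18 and 6.47 at 12 weeks and 6.96, 14.48 and 6.94 at 30 weeks in the knockout.

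Changes of the knockout ratio between ages were tested in the same fit. Between 12 and 4 weeks 0 of 31 members were called, against 6.98% of all genes, with 0 at an unadjusted p under 0.05. Between 30 and 12 weeks the count was 0, against 0.778%, with 1 at an unadjusted p under 0.05 (Reg3g, limma adjusted p = 0.235). Between 30 and 4 weeks it was 0, against 18.9%, with 2 at an unadjusted p under 0.05 (Reg2 and Reg3g, limma adjusted p = 0.143 and 0.133). Without replicate 2 of 30 weeks, 2 members had a higher ratio at 12 than at 4 weeks, against 0.996% of all genes: Ctrc (2.59, limma adjusted p = 0.0402) and Sycn (2.40, adjusted p = 0.0421). In that fit 26 members had a lower ratio at 30 than at 12 weeks, against 0.577% of all genes, and 25 a lower one at 30 than at 4 weeks, against 8.05%. Both counts include Cuzd1 and Reg3d, which passed the filter on dim probes only through the 30-week wild-type channel. The counts thus partly follow from the filter. All these contrasts set different wild-type pools against each other as well as different knockout nodes. One member, Reg3g, was below 0 on all 3 arrays of 30 weeks, against 32.8% of all genes.

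Summed over the 31 members, the acinar signal reached a log2 value of 12.40 to 13.00 in the knockout and 13.65 to 14.26 in wild type at 4 weeks. At 12 weeks it was 12.11 to 13.16 in the knockout and 12.38 to 12.39 in wild type, and at 30 weeks 15.42 to 22.13 in the knockout and 18.05 to 20.39 in wild type. The sum of 9 islet genes, of 22 listed, stayed between 9.73 and 10.11 in the knockout and between 9.67 and 9.81 in wild type over all ages. The median wild-type signal of these genes was 6.29 to 6.49 per array, near background. Gcg, Ptprn and Chgb were not well above background in wild type on any 30-week array, while Pyy, Iapp, Nkx6-1 and Pcsk2 were on all. A steady sum at such signals says little about islet RNA. The defining islet genes Ins1, Sst, Ppy and Pdx1 did not pass the filter on dim probes, and Ins2, insulin, gave 0.77, 0.25 and −0.10 at 30 weeks. The duct list, 11 of 15 genes, reached 11.55 to 13.25 in the knockout and 12.44 to 12.48 in wild type at 30 weeks. Krt8 was at −2.77, 1.45 and 0.61 and Spp1 at −0.08, 2.81 and −0.60, and neither was called. The 2 duct genes called at 30 weeks were lower on all 3 arrays, against 18.4% of all genes called lower. They were Anxa2 (−0.85, −0.90 and −0.72, limma adjusted p = 0.00108) and Epcam (−0.55, −0.27 and −0.58, limma adjusted p = 0.00968). The lymph node list, 15 of 16 genes, stayed between 16.60 and 17.50 in the knockout and between 16.63 and 17.25 in wild type. The acinar sum thus varied between samples at a time when the lymph node sum changed by less than 1. The part that the amount of pancreatic tissue taken with the node plays in the acinar values was not tested.

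**Figure D4:**
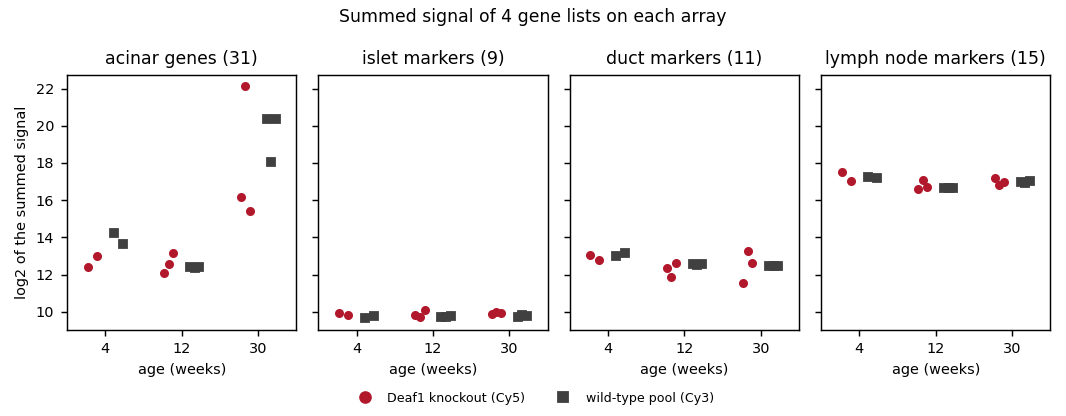
Log2 of the summed normalised signal of 31 acinar, 9 islet, 11 duct and 15 lymph node genes by age, with each knockout sample to the left of the wild-type channel of its array. The acinar sum spans 15.42 to 22.13 in the knockout at 30 weeks, while the islet and lymph node sums stay within narrow bands at every age. The median signal of the islet genes lies near background.

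The 60-base probes of the amylases, trypsinogens, elastases and lipases shared stretches of at most 7 bases with the probe of a related gene. Probes were not compared with the related transcripts, so cross-hybridisation within a family was not tested and values of close relatives are uncertain in that respect. Second probes of Cela1, Klk1, Prss3, Amy1, Pnlip and Rnase1 gave the same sign as the main probe on all 3 arrays of 30 weeks. For Amy1 the second probe gave −4.0, 5.06 and −5.32, and for Pnlip −4.39, 3.06 and −4.32. The second probe of Erp27 was not well above background, at −0.01, 0.03 and 0.13. At 4 weeks the other genes named here also had the same sign in both probes. The second probe of Pnlip, however, gave only −0.32 and −0.06. That of Amy1 gave −1.29 and −0.29, against −2.41 and −0.81 for the main probe. At 12 weeks only Prss3 kept its sign on all arrays. In replicate 2 of that age the second probes gave −0.02 for Pnlip and −0.12 for Amy1, against 0.51 and 0.49. Values of Pnlip and Amy1 at these ages thus depend on the probe.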

How the data were processed

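RNA of each Deaf1 knockout pancreatic lymph node and of a pool of wild-type littermates was amplified, labelled and hybridised together to an Agilent mouse array, per the labels' protocols. The deposited scanner files hold intensity of spots and local background and a processed intensity; the software was Feature Extraction 9.5.3.1 at 4 weeks and 10.2.1.3 at 12 and 30 weeks, with probe positions on mm8, per the file headers. They also hold a log10 ratio of red over green processed signal, per the file headers. The authors' deposited value table holds a log2 ratio that matched log2 of red over green processed signal on each array (Pearson's r over probes of at least 0.9998), with medians per array from −0.21 to 0.15 and no centring; the software behind it is not given in the sources used here.

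All computing was done in R 4.3.3 with limma 3.58.1. Background was removed from the mean signal by normexp (offset 50), dye bias by loess on each array (controls had weight 0), and repeated spots were averaged after outlier flags were dropped. Levels per channel are after loess and quantile normalisation of the average signal between arrays. The filter kept 27464 of 41174 probes, those clearly brighter than background in one and the same channel on every array of some age; the brightest probe stood for its gene (18378 genes), and names follow the files or RefSeq. The linear model had a term for each age over the 8 arrays (5 residual degrees of freedom), with Benjamini-Hochberg adjustment over all genes and a threshold of 0.05. The labels call the arrays of an age biological replicates; nothing more is stated of the animals, so p-values measure the spread between these samples. The number of arrays limits the precision. Same-numbered arrays of different ages correlated at −0.08 to 0.24 in their deviations from the age mean and were not treated as pairs. The fit was tested on simulated data. Alternatives covered the background correction, the deposited ratios, the filter on dim probes, the choice of probe, the slide, the replicate number and each array left out.

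The members and all gene lists were chosen with earlier results of these data known. Genes were named by a fixed list of 30 acinar genes and, for the 30-week pattern, by the size of the smallest of the 3 ratios, without clone and accession names and without an item that is not reported here. Other members named with values, such as Ctrc, Serpini2 and Erp27, were chosen after their values were seen. The 60-base probe sequences are not shown.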

Additional observations from a re-analysis of the deposited data

Results flagged for a closer look

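In 4 members every array of 4 weeks had the opposite sign to every array of 12 weeks: Ctrb1, Pnliprp1, Bhlha15 and Reg3d. Ctrb1 gave −0.70 and −0.13 at 4 weeks and 0.41, 0.22 and 0.29 at 12 weeks, and Pnliprp1 gave −1.75 and −0.12 at 4 weeks and 0.01, 0.61 and 0.72 at 12 weeks. Bhlha15 gave −0.09 and −0.16, then 0.73, 0.04 and 0.19. Its second probe did not show this, with −0.00 and 0.10, then 0.25, −0.02 and −0.21. Reg3d was not well above background in either channel at these ages. In 1 member, Reg3g, the arrays of 4 weeks (0.37 and 0.03) and those of 12 weeks (0.12, 0.23 and 0.08) were above 0 and those of 30 weeks (−0.53, −0.09 and −0.00) below it. The share of all genes with such opposite signs is not given here, so these counts cannot be read as a trait of the members. These opposite signs were not tested by permutation, and the differences between ages had limma adjusted p-values of 0.133 or more for all members.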

How the results depend on the processing

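No member was called in any of the 6 contrasts under most alternatives. The exceptions were these. With the slide as a fixed block, 1 member was called at 30 weeks (Reg3g). On the arrays of 4 weeks alone, 15 were called. Leaving out 1 array at a time gave 0 to 10 calls at 4 weeks, 0 to 0 at 12 weeks, 0 to 28 at 30 weeks, 0 to 2 for 12 minus 4 weeks, 0 to 26 for 30 minus 12 weeks and 0 to 25 for 30 minus 4 weeks, with each upper value reached without replicate 2 of 30 weeks. The median of the members at 4 weeks was −1.07 with the scanner's log ratio, −1.07 with the deposited value table and −1.20 for the 17 members above background on every array, against −0.42; leaving out arrays moved it between −0.76 and −0.13. At 12 weeks leaving out arrays moved it between −0.06 and 0.14, and at 30 weeks between −3.61 and 0.10, so its sign changed without replicate 3 of 12 weeks and without replicate 3 of 30 weeks. At 30 weeks 18 of 31 members kept their sign without replicate 3 of that age. For 30 minus 4 weeks 13 of 31 kept it with the slide as a block, and also without replicate 1 or replicate 3 of 30 weeks. Centring without loess shifted arrays by −0.01 to 1.19 before centring.

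No other alternative gave a call. The replicate block, with the replicate number as a term, called 0 members in every contrast. The samples share only a number, since the correlations of same-numbered arrays were between −0.08 and 0.24. At 4 and 12 weeks 9 and 8 of 32 members had both channels below that background limit, which limits what their ratios can show.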

Other observations

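Adipocyte transcripts, 12 of 12 of which were tested, had medians of −1.52 and −0.58 at 4 weeks, −1.39, −1.24 and −0.04 at 12 weeks and −0.05, −0.25 and 0.44 at 30 weeks. Adiponectin, encoded by Adipoq, gave −1.73 and −1.16 at 4 weeks, −2.57, −1.69 and −0.05 at 12 weeks and −0.48, −0.92 and −0.08 at 30 weeks. In the fit on all arrays 3 of the 12 were called lower at 4 weeks, against 7.38% of all genes. At 12 and 30 weeks 0 were called in either direction, against 2.61% and 39.1% of all genes, and 10 and 1 had an unadjusted p under 0.05 (limma). Of the 9 islet genes, 3 were called higher at 30 weeks, against 20.7% of all genes, among them Iapp (0.17, 0.36 and 0.11, limma adjusted p = 0.0354). Without replicate 2 of 30 weeks 1 of the 9 was called higher, against 15.5%. The keratin gene Krt18 gave −3.11, 1.39 and 0.58 at 30 weeks, so that replicate 3 was above its pool in this gene and far below it in the secreted enzymes.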
